A study of Mus musculus with 12 samples.

Results

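The genes of the cytosolic ribosomal proteins are described here, 85 of the 12212 gene symbols measured by RNA sequencing in germinal center B cells. Spleens of NZBWF1/J mice, a lupus-prone cross, were the source. The genes were chosen by symbol, as Rpl or Rps followed by a digit together with Rplp0, Rplp1, Rplp2 and Rpsa, leaving out the S6 kinases, the binding protein Rps19bp1, Rpl7l1 and symbols marked as pseudogenes. Of them 31 encode proteins of the small subunit, 43 proteins of the large subunit and 3 the stalk, and 8 are paralogs of such genes (Rpl22l1, Rpl32l, Rpl36al, Rpl37rt, Rpl39l, Rps27l, Rps27rt and Rps4l). All 85 passed the filter on low counts.

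The groups were dark zone treated, dark zone control, light zone treated and light zone control, with 3 libraries each and 1000 sorted cells in a library. Treated mice were given 6 injections of 200 ug CTLA4-Ig, which blocks costimulation through CD28, and 6 of 250 ug anti-CD40L, an antibody to the T cell ligand of CD40, within 2 weeks from an age of 18 weeks. Control mice were untreated, and no age is stated for them. Whether the libraries of a group came from separate mice is not stated either, so a p-value covers only the spread among the libraries at hand, which may be technical.

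Most ribosomal proteins are held in equal numbers by each ribosome. The mRNAs of most begin with a run of pyrimidines (a terminal oligopyrimidine or TOP tract), through which mTORC1 and Larp1 control their translation. Growing lymphocytes devote a large part of their mRNA to them. Several members also act outside the ribosome: Rpl5 and Rpl11 bind the p53 inhibitor Mdm2 when ribosome assembly fails, and Rps27l is a p53 target.

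Library totals ran between 16032746 and 26837714 counts. Replicate 2 of the light zone treated group and replicates 1 and 2 of the dark zone treated group stood apart from the other 9, with counts for 12188 to 12195 symbols against 11384 to 11960 and TMM scaling factors of 1.35 to 1.44 against 0.815 to 0.988. They are called the 3 outlying libraries below, and results are given with and without them. Without them the dark zone treated group has 1 library, which the fit assumes to vary like the other groups, and the light zone treated group has 2. The summed level of 7 macrophage and monocyte markers was 69.4 to 171 CPM (counts relative to the TMM-scaled library size) in the 3 outlying libraries and 5.80 to 43.6 CPM in the other 9. The 4 plasma cell markers summed to 1284 to 2403 CPM against 6430 to 11526, and 5 B cell markers to 4905 to 6068 CPM against 5599 to 9014, and no marker of these lists was at 0 in every library. Most of the plasma cell sum was Jchain, at 1109 to 2154 CPM against 6205 to 11323, while Xbp1 overlapped, at 133 to 238 CPM against 28.9 to 225. The part of these differences in the results below was not tested. In such samples fewer cells of a type and less RNA per cell cannot be told apart.

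Members with near-identical sequences do not have independent counts. Rps27 encodes a zinc-binding protein of the small subunit, and Rps27rt is a single-exon gene (chromosome 9, 114982366 to 114982739) whose coding sequence is identical to that of Rps27 (chromosome 3, 90212522 to 90213651, 4 exons) over all 255 bases. Rps27l (chromosome 9, 66946086 to 66949516), the p53-inducible paralog, differs at 61 bases and matches over 76.1%, with no identical stretch longer than 11 bases. The coding sequences show what a short read can and cannot separate, with bases that differ from Rps27 in capitals (GENCODE M21 on GRCm38, the mm10 build):
Rps27: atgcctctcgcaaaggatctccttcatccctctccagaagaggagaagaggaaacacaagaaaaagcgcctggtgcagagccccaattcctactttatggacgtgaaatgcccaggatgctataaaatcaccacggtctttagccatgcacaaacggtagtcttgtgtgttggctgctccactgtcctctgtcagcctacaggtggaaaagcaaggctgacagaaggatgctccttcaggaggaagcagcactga
Rps27l: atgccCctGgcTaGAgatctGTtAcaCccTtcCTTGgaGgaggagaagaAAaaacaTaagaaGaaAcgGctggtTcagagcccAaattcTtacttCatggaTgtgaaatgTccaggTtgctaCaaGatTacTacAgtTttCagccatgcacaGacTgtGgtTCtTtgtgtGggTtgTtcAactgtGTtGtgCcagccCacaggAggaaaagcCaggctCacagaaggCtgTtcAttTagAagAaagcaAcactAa
The count of Rps27rt was 1.01 to 1.02 times that of Rps27 in every library, so these 2 symbols carry a single measurement. Rpl37rt, with 99.7% identity to Rpl37 over 294 transcript bases, had 1.21 to 1.26 times its count. Rpl32l, with 96.0% identity to Rpl32 over 404 aligned bases, had 0.178 to 0.192 times its count. The counts of these 3 paralogs are uncertain for that reason. Rps27l, in contrast, had 0.211 to 0.610 times the count of Rps27 and Rpl22l1 0.792 to 2.47 times that of Rpl22, ratios that varied from library to library.

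Promoter sequences were at hand for 64 of the 85 members (RefSeq, GRCm38.p6). The letters CTTTC, which occur in many TOP tracts, lay on the given strand within 50 bases before to 50 after the annotated start in 34 of the 64 (53.1%), and in 14.6% of the 27025 genes of the table. On both strands the shares were 62.5% and 26.2%. Shown are 30 bases before to 25 after the start, with CTTTC in capitals, for the pair with 1 coding sequence, for Rpl22l1, which had lower values in treated dark zone libraries, and for Rps2 and Rpsa, whose fitted values there were higher although Rpsa was not so in every library:
Rps27, chr3:90213624-90213678, minus strand: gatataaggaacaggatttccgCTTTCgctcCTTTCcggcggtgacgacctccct
Rps27rt, chr9:114982715-114982769, minus strand: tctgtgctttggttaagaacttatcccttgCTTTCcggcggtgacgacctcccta
Rpl22l1, chr3:28805478-28805532, plus strand: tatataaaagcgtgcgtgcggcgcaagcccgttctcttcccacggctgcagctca
Rps2, chr17:24720033-24720087, plus strand: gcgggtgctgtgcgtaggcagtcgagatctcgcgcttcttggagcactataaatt
Rpsa, chr9:120127736-120127790, plus strand: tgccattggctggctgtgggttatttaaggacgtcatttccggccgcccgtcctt
The windows of Rps27 and Rps27rt hold the letters, and those of Rpl22l1, Rps2 and Rpsa do not. Over the 64 members the median log2 difference between treated and control dark zone libraries was -0.79 for the 34 with CTTTC and -0.65 for the 30 without. In the light zone the medians were -0.53 and -0.55. A match describes the letters in this window and nothing more.

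Ribosomal protein genes held 8.18% to 11.8% of all counts in a library. Their summed share was 11.1%, 8.85% and 8.18% in dark zone treated libraries, against 10.8%, 11.1% and 9.31% in dark zone controls. It was 10.4%, 8.87% and 8.48% in light zone treated libraries, against 11.8%, 11.7% and 10.1% in light zone controls. The means differed by -1.05 percentage points in the dark zone and -1.96 in the light zone, treated minus control, and the groups overlapped in both zones. The differences of the means, treated minus control, were -2.25 and -1.78 percentage points in the other 9 libraries. Counting error alone is small at this depth: the exact (Clopper-Pearson) 95% interval of the first light zone control was 11.78% to 11.81%. This interval takes every count as independent, which counts from amplified RNA are not, so it understates the sampling error of the share.

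**Figure D1:**
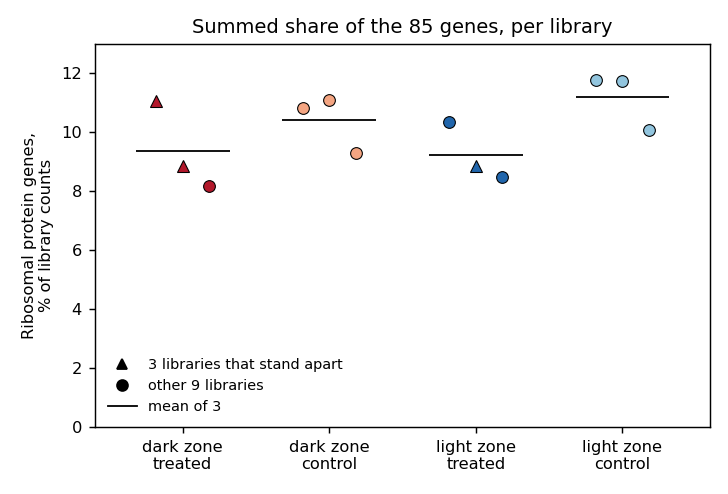
Share of all library counts held by the 85 ribosomal protein genes (y axis, percent), one point per library in the 4 groups, with lines at group means and triangles for the 3 outlying libraries. Treated libraries lie at 8.18% to 11.1% and controls at 9.31% to 11.8%, and the groups overlap in each zone.

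Per kilobase of coding sequence, levels spread widely among members, most of which encode proteins that the ribosome holds in equal numbers. Means over the 12 libraries are given for the 82 members with an annotated coding sequence. Rpl41, the smallest ribosomal protein gene with 78 coding bases, stood highest at 32576 CPM per kilobase, followed by Rps29 at 9308. Untranslated bases are left out of this divisor, and the whole Rpl41 transcript has 437 bases, so the ranking depends in part on that choice. Rps27rt and Rps27, which carry a single measurement, came next at 7771 and 7624. Rps14, a protein of the small subunit lost in human 5q- syndrome, stood at 7415. At the low end were Rps21 with 169 CPM per kilobase and Rpl22 with 519. Rpl39l, known as a testis paralog of Rpl39, stood at 9.76 CPM per kilobase. Rps4l, a single-exon paralog of Rps4x, had 2.48, 2.02 and 3.88 CPM in the 3 outlying libraries and 0 to 1.54 CPM in the others. It had 0 counts in dark zone treated replicate 3, dark zone control replicate 1 and light zone treated replicate 3, where 3 counts would be 0.120, 0.206 and 0.155 CPM, so no fold is given for it.

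Treated and control dark zone cells were compared first, to describe ribosomal protein mRNA in dividing germinal center B cells when T cell help is blocked. Most members were lower in treated libraries: 75 of 85 had a negative log2 difference, against 47.8% of all 12081 tested genes, with a median of -0.65 against 0.06. The medians were -0.68 over 31 small subunit and -0.64 over 43 large subunit genes. The other 10 had positive values, among them Rpl3, Rps2, Rpsa, Rpl8 and Rplp0. No single member passed: edgeR's quasi-likelihood test called 0 of 85 members and 0% of tested genes at a Benjamini-Hochberg adjusted p under 0.05.

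Rpl39, a small protein lining the exit tunnel, had 334, 326 and 456 CPM in treated libraries, against 1238, 1183 and 905 CPM in controls. All treated libraries lay below all controls, including the replicate that does not stand apart, with a log2 difference of -1.57 (SE 0.45, edgeR adjusted p = 0.528, the lowest value in this comparison and shared by many genes). Rps27 had 862, 632 and 1449 CPM, against 2816, 3239 and 2062, a log2 difference of -1.46 (SE 0.45), and Rps27rt repeats it. Its paralog Rps27l had 182, 232 and 884 CPM in treated libraries, against 1339, 1457 and 1157 in controls, a log2 difference of -1.61 (SE 0.74). The 3 values of each group do not overlap for either gene, and treated replicates 1 and 2 are the lowest. In the other 9 libraries, with treated replicate 3 alone, the log2 differences were -1.27 for Rpl39, -0.89 for Rps27 and -0.56 for Rps27l.

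Rpl22, an RNA-binding protein that in mice represses its own paralog, had 124, 95.6 and 143 CPM in treated libraries, against 289, 328 and 196 CPM in controls (log2 difference -1.16, SE 0.36). The paralog Rpl22l1 had 98.5, 100.3 and 226 CPM, against 480, 568 and 387 CPM (log2 difference -1.76, SE 0.57). Both genes of the pair were therefore lower in every treated than in every control library. Rps14 had 1162, 1049 and 2346 CPM in treated libraries, against 4223, 4813 and 4057 CPM in controls, with no overlap (log2 difference -1.52, SE 0.53). The 9-library values were -0.91 for Rpl22, -1.07 for Rpl22l1 and -0.88 for Rps14.

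Members with higher values came next. Rps2, at the mRNA entry side of the small subunit, had 2306, 2279 and 1351 CPM in treated libraries, against 965, 1205 and 1009 CPM in controls (log2 difference 0.90, SE 0.31). Rpl3, next to the peptidyl transferase center, had 1533, 1389 and 673 CPM, against 637, 536 and 545 CPM (log2 difference 1.06, SE 0.42). These 2 were the only members whose treated libraries all lay above the controls, 2 of 85 against 12.5% of all tested genes. Rpsa, also known as a laminin receptor, had 3401, 2525 and 1135 CPM, against 1346, 1525 and 1208 CPM, so treated replicate 3 lay below the controls (log2 difference 0.79, SE 0.42). Without the 3 outlying libraries the differences were 0.36 for Rps2, 0.25 for Rpl3 and -0.25 for Rpsa.

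Among the other fixed members, Rpl5 had a log2 difference of -0.79 (SE 0.34) and Rpl11 of -0.75 (SE 0.32), both without overlap between the groups. Rps27a, which is made as a fusion with ubiquitin, was at -0.95 and Rps19, the gene most often mutated in human Diamond-Blackfan anemia, at -1.01. Rps6, the substrate of the S6 kinases, was at -0.60 and Rpl41 at -0.65. Rpl13a was at -0.20, and 0.29 after scaling to plain library totals. The stalk, which recruits translation factors, was split, with a log2 difference of 0.44 for its base Rplp0. Its acidic proteins Rplp1 and Rplp2 had -0.38 and -0.31, which turn to 0.08 and 0.17 with plain library totals. Plain totals raised the median of all genes as well, so these signs, and that of Rpl13a, are not relative to other genes.

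In 48 of the 85 members every treated library lay below every control, against 11.2% of all tested genes. With plain library totals this held for 32 members, against 7.96% of genes. At an unadjusted p under 0.05 edgeR had 36 members, against 8.89% of genes. DESeq2 called 0 members and 0.596% of genes. limma-voom with sample quality weights called 53 members, 48 lower and 5 higher (Rpl3, Rpl8, Rplp0, Rps2 and Rpsa), against 26.3% of all genes, 15.9% lower and 10.4% higher. It gave treated replicates 1 and 2 weights of 4.70 and 5.43 and replicate 3 a weight of 0.237, the 2 outlying libraries thus counting most. Plain library totals moved the median of all genes to 0.51 and that of the members to -0.23, so relative to all genes the members stood at -0.71 with TMM and -0.74 without. In the other 9 libraries 79 of 85 members were lower, against 54.4% of genes, with a median of -0.41 against -0.11.

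**Figure D2:**
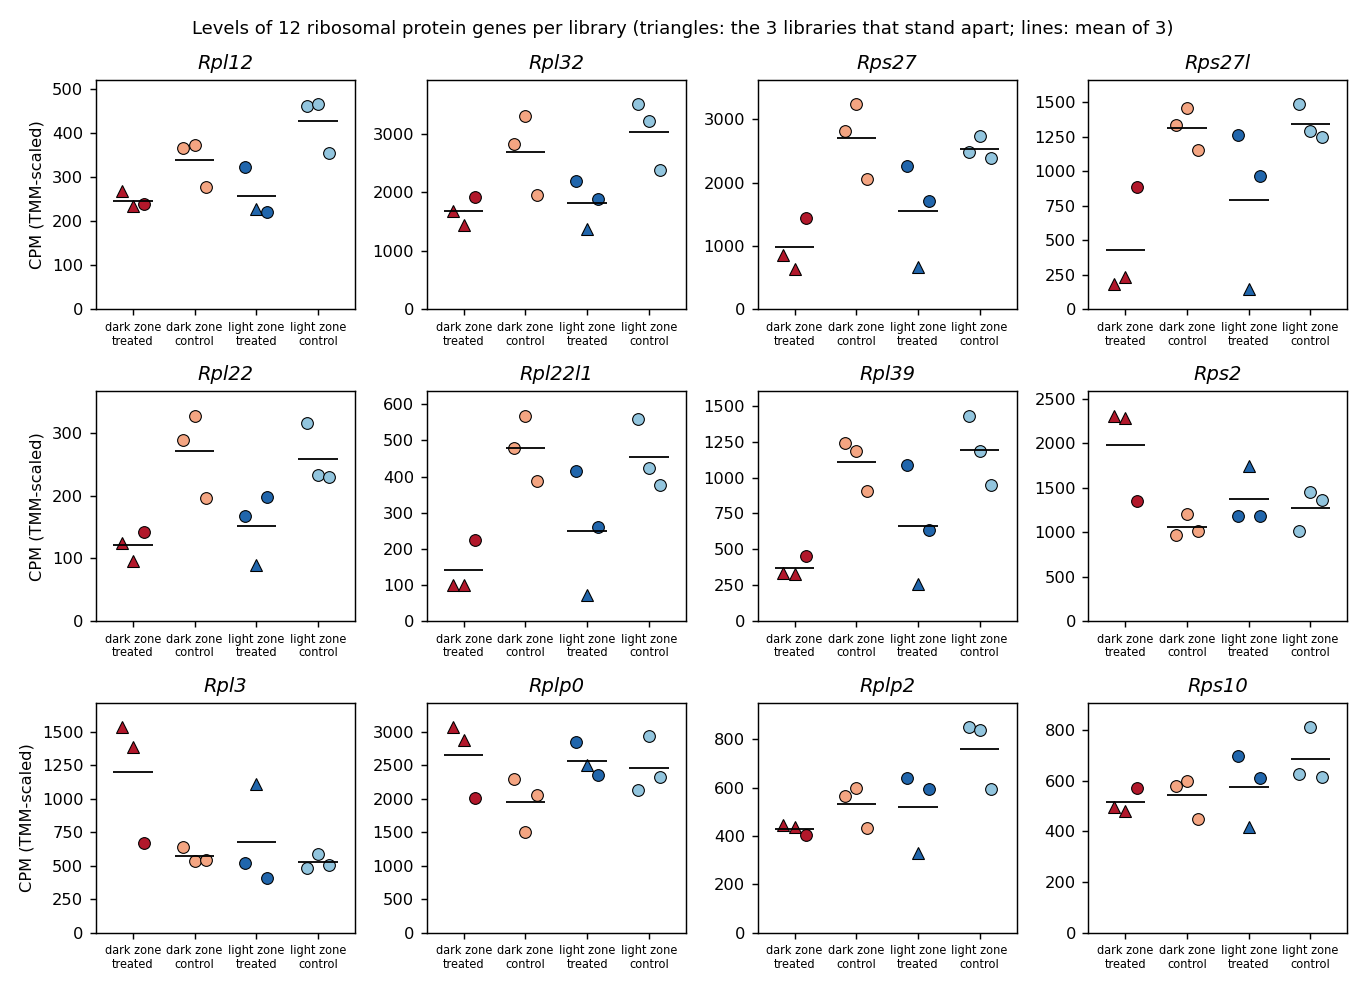
Levels of 12 ribosomal protein genes (y axes, CPM of TMM-scaled library size) in the 4 groups, one point per library, lines at group means and triangles for the 3 outlying libraries. Rps27l and Rpl22l1 are lowest in the 3 outlying libraries, at 146 to 232 and 71.2 to 100.3 CPM, and Rpl3 is highest there, at 1107 to 1533 CPM.

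The same comparison in the light zone, where B cells compete for T cell help, had members lower as well. There 77 of 85 members had a negative log2 difference between treated and control libraries, against 45.9% of tested genes, with a median of -0.55 against 0.10. The medians were -0.57 for the small subunit, -0.47 for the large subunit and -0.55 for the stalk. By edgeR's quasi-likelihood test 0 of 85 members and 0% of genes passed the adjusted threshold.

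The smallest p-value belonged to Rpl12, a protein at the base of the stalk. It had 323, 227 and 221 CPM in treated libraries, against 461, 465 and 355 CPM in controls, a log2 difference of -0.73 (SE 0.27, edgeR adjusted p = 0.674). Rpl32 had 2197, 1373 and 1889 CPM in treated libraries, against 3503, 3221 and 2389 CPM in controls (log2 difference -0.74, SE 0.31), and Rpl32l followed it at -0.77. Rps12 had 246, 244 and 173 CPM, against 434, 449 and 275 CPM (log2 difference -0.81, SE 0.36). In each of these genes all treated libraries lay below all controls, and in Rpl12 and Rps12 the lowest value was not from the outlying library. Without the 3 outlying libraries Rpl12 stood at -0.64, Rpl32 at -0.56 and Rps12 at -0.87.

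Members led by the outlying library behaved otherwise. Rps27l had 1266, 146 and 965 CPM in treated light zone libraries, against 1486, 1290 and 1250 CPM in controls, so treated replicate 1 reached into the control range. Rpl22l1 had 414, 71.2 and 259 CPM, against 559, 425 and 376 CPM, which also overlapped. Rps14 had 4736, 891 and 3313 CPM, against 4779, 4908 and 4298 CPM. Their log2 differences of -0.76, -0.87 and -0.65 were -0.25, -0.41 and -0.20 without the 3 outlying libraries. Rps27 had 2263, 672 and 1717 CPM, against 2488, 2741 and 2390 CPM, without overlap (log2 difference -0.71, SE 0.45, and -0.34 in the other libraries). Rpl22 had 168, 89.5 and 198 CPM, against 316, 234 and 230 CPM, again without overlap (log2 difference -0.78, SE 0.36). Rpl39 was at -0.85, Rpl41 at -0.75, Rps19 at -0.77 and Rps27a at -0.73, while Rpl5, Rpl11, Rps6 and Rpl13a were at -0.62, -0.33, -0.42 and -0.26.

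At higher values were Rpsa with a log2 difference of 0.52 (SE 0.41), Rpl3 with 0.37 (SE 0.41) and Rpl4, which lines the exit tunnel, with 0.25 (SE 0.26). Rpl3 had 524, 1107 and 409 CPM in treated libraries, against 485, 585 and 507 CPM, and its sign turned to -0.16 without the outlying libraries. Rplp0 was at 0.06 and Rplp1 and Rplp2 were at -0.55 each.

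In 24 members all treated light zone libraries lay below all controls, against 5.49% of all genes, and in 0 members above, against 5.82%. With plain library totals 20 members lay below, against 4.01%. edgeR had 4 members at an unadjusted p under 0.05, against 7.36% of genes, a share below that of all genes. DESeq2 called 0 members and 1.79% of genes, and limma-voom 0 members and 0% of genes. Here limma-voom gave the outlying treated replicate 2 a weight of 0.205, and replicates 1 and 3 weights of 0.792 and 0.760. The outlying library thus counted least in this group, unlike in the dark zone, so the limma-voom calls of the zones are not comparable. In the other 9 libraries 79 members were lower, against 51.6% of genes, with a median of -0.27 against -0.04. In 14 members all treated libraries lay below all controls in both zones, against 2.24% of all genes. Among them were Rpl10, Rpl12, Rpl22, Rpl23, Rpl24, Rpl27, Rpl30, Rpl32, Rpl35, Rps4x, Rps21, Rps27 and Rps27rt. Rps27 and Rps27rt, which carry a single measurement, are both counted in the 14 and in the 24. The zones have separate control libraries.

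The difference between the treatment effects of the zones was tested by an interaction term in the same edgeR fit, which called 0 of 85 members and 0% of genes. At an unadjusted p under 0.05 there were 0 members, against 2.28% of genes, and DESeq2 called 0 members and 0.132% of genes. The members' median interaction was 0.13, against 0.15 over all genes. It was -0.11 with plain library totals, which also move the values of all genes.

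The 3 outlying libraries shared a composition of ribosomal protein mRNA that the others did not have. Each member's share of the summed member counts in a library does not depend on how libraries are scaled. By this measure 20 members lay above and 28 below all of the other 9 libraries in the 3 outlying ones. With TMM-scaled CPM, a measure for which all genes can be set beside them, 4 members lay above, against 13.7% of genes, and 50 below, against 16.7%. With plain CPM there were 11 above, against 25.9%, and 17 below, against 10%. These libraries were set apart by their values, so the counts describe them and are not a test.

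Rpsa made up 3.86% to 4.35% of ribosomal protein counts in the outlying libraries, against 0.704% to 1.43% in the other 9. Rpl3 made up 1.80% to 2.12% against 0.364% to 0.775%, and Rps2 2.84% to 3.48% against 0.762% to 1.56%. Rplp0 was at 3.92% to 4.39% against 1.11% to 2.45%, and Rpl8, a protein of the large subunit, at 1.91% to 2.01% against 0.518% to 0.945%. Below were Rps14 with 1.45% to 1.60% against 2.70% to 4.30%, and Rps27 with 0.965% to 1.10% against 1.67% to 2.38%. Rps27l was at 0.233% to 0.355% against 0.947% to 1.23%, Rpl22l1 at 0.116% to 0.153% against 0.260% to 0.419%, and Rpl35 at 1.29% to 1.37% against 2.29% to 3.15%. The most abundant member was Rpsa, Rplp0 or Rpl13 in each of the 3 outlying libraries and none of these in the other 9.

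Correlations of log2 shares over 84 members put numbers on the likeness. The members used include Rpl39l, at 0.000371% to 0.00415% of ribosomal protein counts, far below the others. So low a gene can raise r in every pair, and r without it was not computed. The 3 pairs of outlying libraries had Pearson's r of 0.989 to 0.996. The 36 pairs among the other libraries had 0.960 to 0.991, and the 27 mixed pairs had 0.827 to 0.921. The pairs share libraries, so these are descriptions. In this respect dark zone treated replicate 3 and light zone treated replicates 1 and 3 grouped with the controls. Dark zone treated replicate 3 was still the nearest to the outlying libraries, with r of 0.917 to 0.921. The highest of the other mixed pairs had 0.894. With the non-outlying libraries this replicate had 0.960 to 0.984. It is the only dark zone treated library in the fit without the outlying ones. Whether the dark zone values of that fit are free of the outlying composition was not tested.

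**Figure D3:**
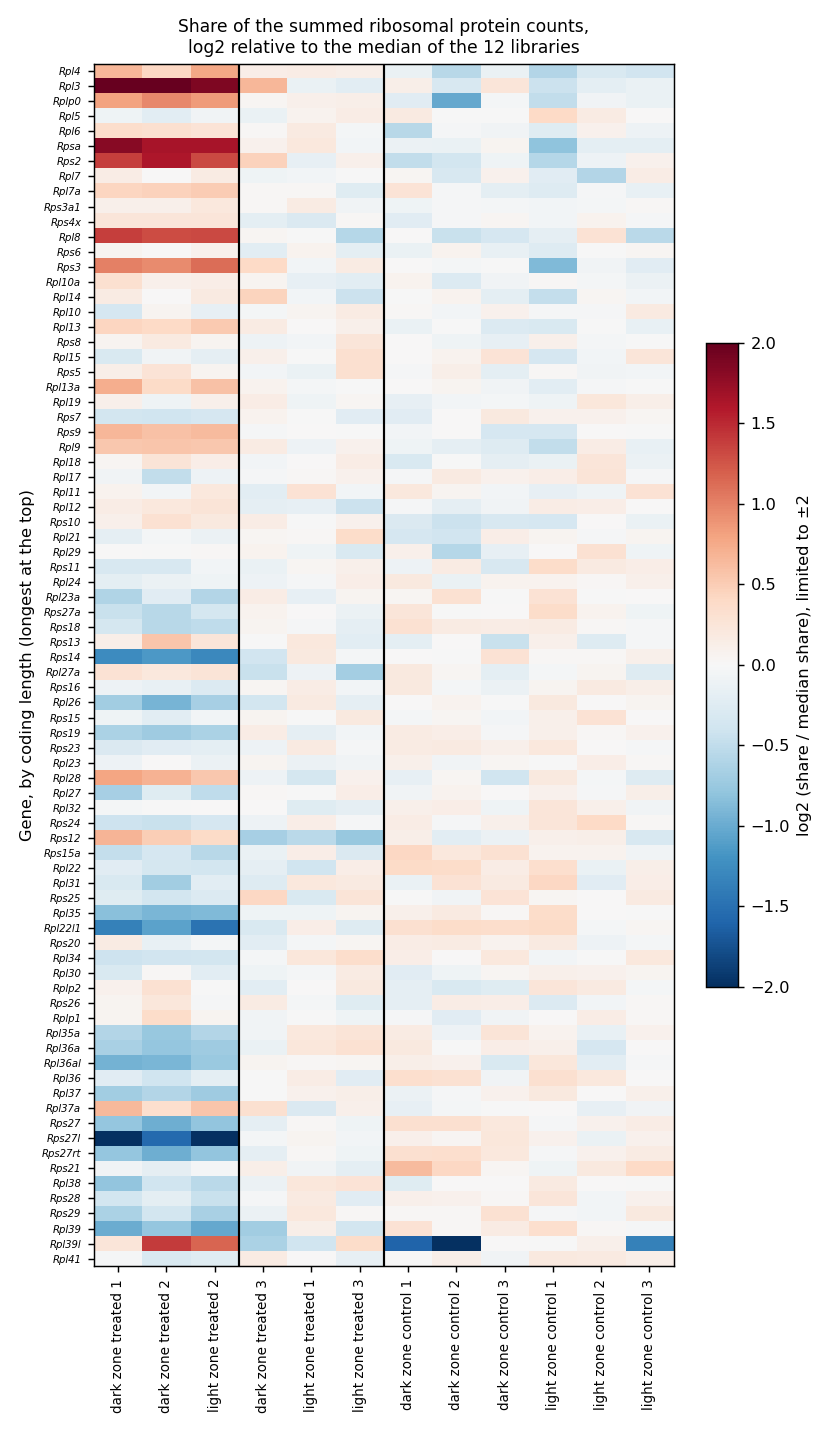
Share of the summed ribosomal protein counts held by each gene shown, all with an annotated coding length (rows, longest at the top), as log2 relative to the gene's median over the 12 libraries (columns), limited to 2 in either direction. The first 3 columns are the outlying libraries, where Rpl3 and Rpsa take larger shares, at 1.80% to 2.12% and 3.86% to 4.35%, and Rps27l a smaller one, at 0.233% to 0.355%.

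Shares were also summed by coding length. The 29 members with under 400 coding bases held 19.3% to 19.96% of ribosomal protein counts in the outlying libraries, against 25.7% to 29.1% in the other 9. The 31 members of 400 to 599 bases held 36.4% to 36.9%, against 41.5% to 43.9%. The 19 of 600 to 899 bases held 34.2%, against 22.0% to 25.9%, and the 3 longest, Rpl3, Rpl4 and Rplp0, held 8.24% to 8.50%, against 2.52% to 4.72%. Some members ran against this order: Rps12, Rpl28 and Rpl37a, all below the members' median length, took larger shares in the outlying libraries (Rps12 0.396% to 0.485% against 0.179% to 0.330%), and the longer Rps7 a smaller one.

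Members' log2 differences between treated and control libraries followed coding length across genes, with Pearson's r of 0.49 and Spearman's rho of 0.59 in the dark zone and 0.52 and 0.53 in the light zone (82 members). Over 11443 genes with a coding length r was 0.13 and rho 0.19 in the dark zone, and 0.07 and 0.14 in the light zone. In the dark zone the median over members was -1.01, -0.68, -0.35 and 0.44 in rising length ranges. Over all genes it was -0.95 under 400 coding bases, -0.55 at 400 to 599, -0.13 at 600 to 899 and 0.31 at 900 to 1499. Above the range of the members the all-gene median was 0.39 at 1500 to 2999 bases and 0.16 at 3000 or more. Members are short, with a median of 451.5 coding bases against 1386 in all genes tested. In the light zone the medians were -0.62, -0.60, -0.34 and 0.25 over members, and -0.49, -0.27, -0.03 and 0.31 over all genes.

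A fit with an offset for transcript length in each library gave smaller dark zone differences. The members' median was -0.30, which was -0.01 relative to the median of all genes under that offset, and r with coding length was 0.01. With transcript length, the measure of the offset, the sign of the members' r turned instead: it was -0.43 with the offset and 0.32 without it (85 members). Light zone values were -0.25 and 0.18. The offset used a single annotated transcript per gene, which in some members was far longer than the coding sequence. Rps15a had 5179 transcript bases against 393 coding bases, and Rps20 had 3706 against 360. The effect of this choice was not tested. In the light zone the members' median log2 difference with the offset was -0.23, also -0.23 relative to all genes. Without the 3 outlying libraries the length pattern over all genes was weaker. Dark zone medians were then -0.58, -0.40, -0.35 and 0.06 over members in the same length ranges, and -0.25, -0.08, -0.01 and -0.10 over all genes. In the light zone they were -0.29, -0.33, -0.18 and 0.09 over members, and -0.13, -0.02, 0.00 and 0.00 over all genes. With both the offset and the 9 libraries, a choice made after seeing the data, members stood at -0.43 in the dark zone, with 1 treated library, and -0.13 in the light zone, or -0.25 and -0.21 relative to all genes.

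**Figure D4:**
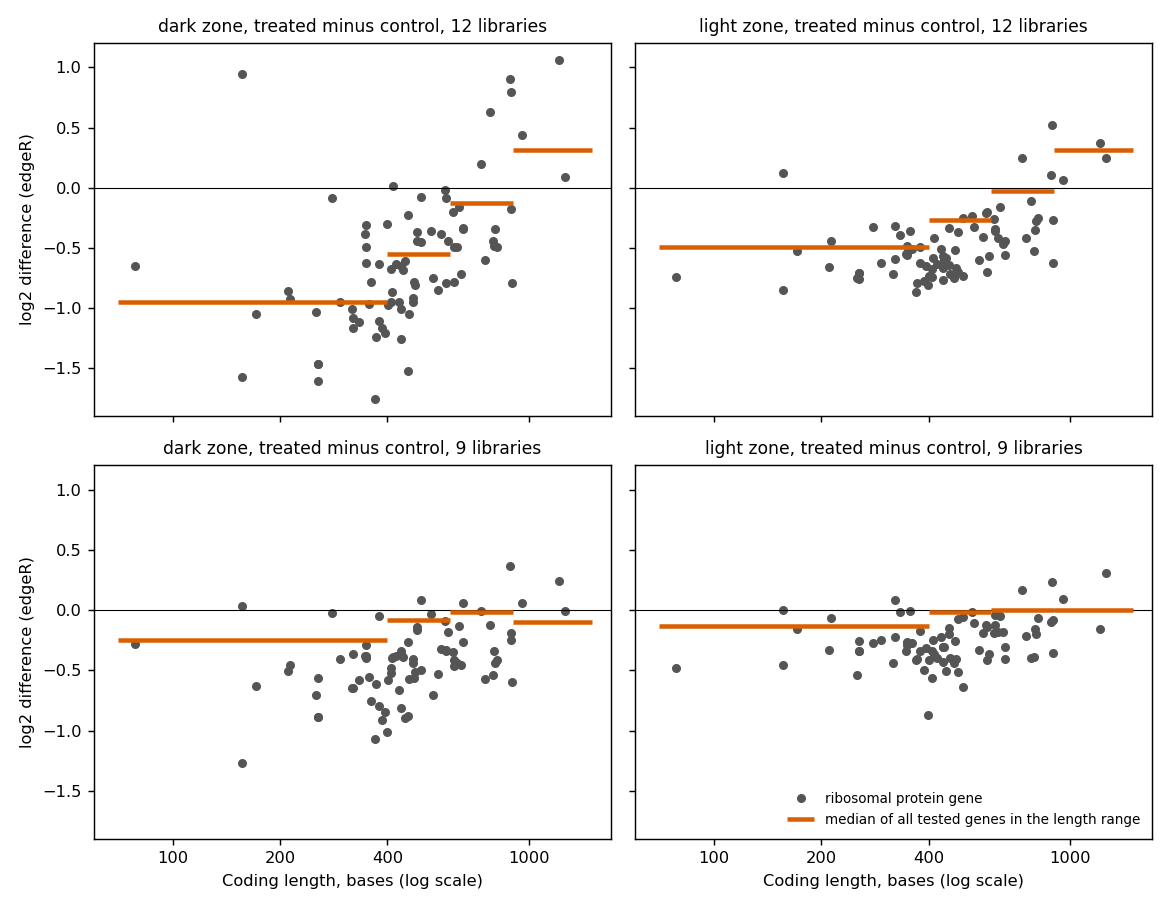
Log2 difference between treated and control libraries (edgeR) of 82 ribosomal protein genes against coding length in bases (log scale), with orange bars at the median of all tested genes in 4 length ranges, for 12 libraries (top) and without the 3 outlying ones (bottom). With 12 libraries the all-gene medians in the dark zone climb with length between -0.95 and 0.31 and members follow them, and with 9 libraries the all-gene medians there run between -0.25 and -0.01.

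The zones were compared next within untreated mice, light over dark, with none of the 3 outlying libraries in either group. Of the 85 members, 67 had a positive log2 difference, against 50.1% of genes, with a median of 0.15 against 0.00. In the 9-library fit 70 were positive, against 51.3%. The 3 stalk genes were all positive, with Rplp2 at 0.52 (SE 0.31), Rplp0 at 0.33 (SE 0.28) and Rplp1 at 0.30 (SE 0.28). Rplp2 had 848, 836 and 596 CPM in light zone controls, against 566, 597 and 431 CPM in dark zone controls, and light zone replicate 3 lay within the dark zone range.

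Rps10 had 629, 811 and 617 CPM in light zone controls, against 580, 599 and 451 CPM in dark zone controls (log2 difference 0.34, SE 0.28). Rpl21 had 1519, 1470 and 1292 CPM, against 1036, 1156 and 1134 CPM (log2 difference 0.36, SE 0.32). With TMM-scaled CPM these were the only members without overlap, 2 of 85 against 4.47% of genes. With plain library totals 7 members lay higher without overlap, against 3.95% of genes (Rpl10, Rpl19, Rpl21, Rpl30, Rplp2, Rps10 and Rps25), so the share of members was below that of all genes with one scaling and above it with the other. Rpl29 stood at 0.43 and Rpl12 at 0.34. At lower values were Rps3, part of the mRNA entry channel, at -0.22 (SE 0.29), Rpsa at -0.17 and Rps15a at -0.15. The fixed members Rpl5, Rpl41, Rps27a, Rps19, Rps6, Rpl39 and Rps14 lay between 0.10 and 0.28, and Rps27, Rps27l, Rpl22 and Rpl22l1 between -0.09 and 0.03. Rpl3, Rpl11 and Rpl13a were at -0.12, 0.06 and 0.04.

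edgeR's quasi-likelihood test called 0 members and 0% of genes, and had 0 members at an unadjusted p under 0.05, against 4.93% of genes. DESeq2 called 0 members and 0.935% of genes, and limma-voom 0 members and 0.00828% of genes. The median rests on few libraries: without dark zone control replicate 3, whose member levels were the lowest of its group, it was 0.02, and without dark zone control replicate 2 it was 0.29. Without light zone control replicate 1 it was 0.10.

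In treated mice the zone comparison has outlying libraries on both sides. Of the 85 members 70 had a positive log2 difference between light and dark zone, against 52.6% of genes, with a median of 0.29 against 0.05. With plain library totals, which move the values of all genes in a library alike, 44 were positive and the median was 0.00. These 2 values are not relative to all genes. Rps14 stood at 0.97 (SE 0.52), Rpl39 at 0.82 (SE 0.45), Rpl26 at 0.78 (SE 0.43) and Rpl31 at 0.75 (SE 0.40). Rpl31 had 892, 350 and 711 CPM in light zone and 415, 266 and 477 CPM in dark zone libraries, which overlap. Among the fixed members Rps6, Rps19, Rps27, Rps27a, Rps27l, Rpl5, Rpl11, Rpl22, Rpl22l1 and Rpl41 lay between 0.17 and 0.87, and Rplp0, Rplp1, Rplp2 and Rpl13a were at -0.04, 0.13, 0.28 and -0.01. Rpl3 was at -0.82 (SE 0.41), Rps2 at -0.53, Rpl8 and Rpsa at -0.44 each. Groups overlapped in every member, so 0 of 85 were separate in either direction, against 2.24% higher and 3.55% lower among all genes.

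edgeR's quasi-likelihood test called 0 members and 0% of genes here, with 0 members at an unadjusted p under 0.05, against 2.06% of genes. DESeq2 called 0 members and 0.00828% of genes, and limma-voom 0 members and 0% of genes. Without the 3 outlying libraries 78 members were higher in the 2 light zone libraries than in the single dark zone library, against 54% of genes, with a median of 0.35 against 0.09. Rpsa and Rplp0 then turned to 0.33 and 0.38 and Rpl8 to 0.04, while Rpl3 stayed below 0 at -0.51. The summed share of the 85 genes was 10.4% and 8.48% in these light zone libraries and 8.18% in the dark zone library, a mean difference of 1.24 percentage points, against -0.13 with all libraries. The median depended on single libraries: it was 0.07 without light zone treated replicate 1, 0.52 without light zone treated replicate 2 and 0.19 without dark zone treated replicate 2.

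**Figure D5:**
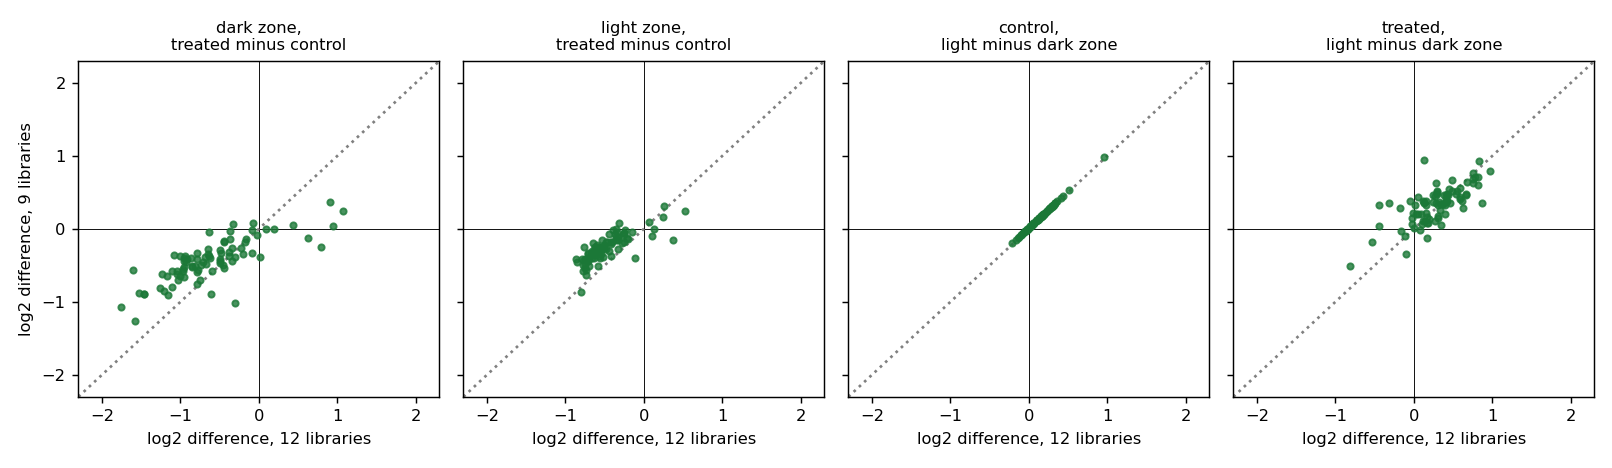
Log2 differences of 84 ribosomal protein genes (Rps4l left out, as its counts reach 0) in 4 comparisons, from the fit of all 12 libraries (x axis) and of the 9 without the outlying ones (y axis), with a dotted line of equality. In the dark zone the median over the 85 genes is -0.65 with 12 libraries and -0.41 with 9, and in the light zone -0.55 and -0.27. The control zone comparison has the same libraries in both fits, so it lies on the line by design.

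Other genes of translation were read from lists to set beside the members. In each comparison edgeR called 0 of their genes and 0% of all genes. Over all tested genes 52.2% were higher in treated libraries in the dark zone and 54.1% in the light zone. Of 17 further TOP-type transcripts, 9 were higher and 8 lower in treated than in control dark zone libraries (median log2 difference 0.02). In the light zone 5 were higher and 12 lower (median -0.30). Without the 3 outlying libraries the medians were -0.11 and -0.24. They include Eef2, the translocation factor with a long coding sequence, at 1804, 1292 and 196 CPM in dark zone treated libraries, against 238, 90.2 and 128 CPM in controls. The 2 outlying libraries were the highest, and the log2 difference of 2.85 was 0.38 without the 3. Tpt1, a short TOP transcript, was at -0.79. Fau, which encodes a fusion of a ubiquitin-like and a ribosomal protein, was at -0.08.

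Of 17 ribosome assembly and chaperone factors, 12 were higher and 5 lower in the dark zone (median 0.48), and 13 and 4 in the light zone (median 0.33). Without the outlying libraries the counts were 9 and 8 in the dark zone (median 0.13) and 10 and 7 in the light zone (median 0.27). Of 14 mTORC1 and TOP regulators, 10 were higher and 4 lower in each zone, with medians of 0.84 and 0.61. Their counts without the outlying libraries were 10 higher and 4 lower in the dark zone (median 0.67) and 8 and 6 in the light zone (median 0.63). The summed level of these regulators, in which abundant genes weigh most, went the other way in the dark zone. It was 1013, 1126 and 1854 CPM in dark zone treated libraries, against 1741, 1977 and 2119 CPM in controls. In the light zone the sum was 3091, 1179 and 2816 CPM, against 1749, 2209 and 2200 CPM. Larp1, which binds TOP mRNAs, had 110, 88.9 and 20.2 CPM in dark zone treated libraries, against 16.9, 6.53 and 9.92 CPM in controls. Its treated values did not overlap the controls, and those of the outlying libraries were the highest. Of 10 genes of ribosome rescue and quality control, 8 were higher and 2 lower in each zone, with medians of 0.24 and 0.14. The 9-library counts were 7 and 3 in the dark zone and 5 and 5 in the light zone (medians 0.30 and 0.09). Of 8 p53 response genes, 7 were higher and 1 lower in each zone, with medians of 1.60 and 1.19. DESeq2 called 1 of the 8 in the dark zone, against 0.596% of genes, and 1 between zones in controls, against 0.935%. It called 0 of them in the light zone and between zones in treated mice. Without the outlying libraries 6 of the 8 were tested. There 3 were higher and 3 lower in the dark zone (median 0.27), and 4 higher and 2 lower in the light zone (median 0.47). Of 8 factors known to bind ribosomal protein promoters, 3 were higher and 5 lower in the dark zone (median -0.26), and 1 was higher and 7 were lower in the light zone (median -0.58). Without the 3 outlying libraries the dark zone counts of these factors turned to 6 higher and 2 lower (median 0.46), and the light zone median was -0.47.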

How the data were processed

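Each library holds 1000 cells sorted as dark or light zone germinal center B cells, amplified with SMART-Seq v4 Ultra and made into libraries with Nextera XT, per the labels. The authors deposited expected counts per gene, 1 table per library. Reads were aligned with BWA to mm10 per the submitters' processing notes, while the version of BWA, the counting tool and the annotation are not given in the sources at hand. Expected counts were rounded to whole numbers, midway values up (8 members had such values), and blanks were taken as 0. Counting error alone is small at 16032746 to 26837714 counts per library, if counts are taken as independent. A count of 3 corresponds to 0.0776 to 0.206 CPM.

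Groups were taken from the labels, and the replicate numbers only name libraries. edgeR 4.0.16 (R 4.3.3) was fitted to all 12 libraries with TMM scaling, filterByExpr (minimum count 10, minimum total 15; 12081 genes, all 85 members) and the robust quasi-likelihood test, with Benjamini-Hochberg adjustment over all tested genes at 0.05. DESeq2 1.42.0, limma-voom 3.58.1 with quality weights, plain library totals, length and GC offsets (splines with 4 degrees of freedom), a replicate block, a fit without the 3 outlying libraries (12017 genes) and leaving out each library were alternatives. The fits were run on simulated data with known changes and no outlying composition. Recovery was required there only for large changes at a spread set low. Recovery at the spread of these data is not reported here. Coding lengths come from GENCODE M21 and promoters from RefSeq. Members named are the 4 with the smallest p per direction and comparison, 18 fixed members, the highest and lowest by level, and up to 6 per direction whose groups do not overlap with a log2 difference of at least 1; others were named after their values were seen. The members and lists were chosen with earlier results of these data known. Some genes are not reported here by name.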

Additional observations from a re-analysis of the deposited data

How the results depend on the processing

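Medians over the 85 members kept their sign in every alternative for both treatment comparisons. The medians in this paragraph are not set against all genes, whose median also moved with the setting. Relative to all genes the dark zone shift was close to absent with the length offset in all 12 libraries, but not in 9, as given above. In the dark zone the median log2 difference was -0.23 with plain library totals and -0.25 with a term for the 3 outlying libraries. It was -0.30 with the length offset and -1.13 with a GC offset. There limma-voom called 53 members, against 26.3% of all genes. In the light zone the median was -0.13 with the length offset in 9 libraries, chosen after seeing the data. The GC offset gave 0.73 for the zones in treated mice and 0.55 for the interaction, and the zone difference in summed share of treated mice was 1.24 percentage points without the 3 libraries. The interaction median was -0.11 with plain totals and -0.12 with the term. The cause of these shifts was not tested. Leaving out 1 library gave medians of -0.82 to -0.53 in the dark zone, -0.75 to -0.28 in the light zone, 0.02 to 0.29 between zones in controls, 0.07 to 0.52 in treated mice and -0.07 to 0.36 for the interaction, with 0 members called each time. Differences in summed share then ran from -1.91 to -0.46, -2.53 to -1.59, 0.22 to 1.34 and -0.73 to 0.72 percentage points. The replicate block called 0 members, with medians of -0.67, -0.56, 0.15, 0.27 and 0.13. A count of 0 members in the leave-out and block fits is no result about the members. The edgeR fit of all 12 libraries already called 0% of all genes. Same-numbered zone pairs correlated at -0.31 to 0.54, so pairing by number was not shown.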
